A study of Mus musculus with 3 samples.

Results

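Sebocytes make the lipids of the sebaceous gland, a small gland that opens into the upper hair follicle. They fill with droplets of wax esters, triglycerides and sterols and then burst, so that the whole cell becomes sebum; this is called holocrine secretion. The nuclear receptor PPARG and androgens drive their maturation, and their lipids come from fatty acid synthesis, elongation and desaturation, from peroxisomes and from the cholesterol pathway.

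The cells described here were chosen by measured counts in single-cell RNA sequencing of mouse whole skin. A cell was taken as a sebocyte when at least 3 of 7 sebaceous genes had a count: Scd3, Cidea, Elovl3, Far2, Awat2, Dgat2l6 and Soat1. It also had to have no count of Ptprc, the pan-leukocyte gene, and none of Col1a2, a fibroblast collagen. The rule selected 93 of 20728 cells that had at least 200 detected genes and at most 20% of counts from mitochondrial genes. They were 28 of 9078 cells of the control library, 49 of 5451 of the UV library and 16 of 6199 of the UV_VD library.

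The skin came from C57BL/6 mice, 9 weeks old in the series' design text. The control library is from unirradiated skin with saline, the UV library from irradiated skin with saline, and the UV_VD library from irradiated skin with an agent labelled VD; the series title names UVB and vitamin D. Each group is 1 library, and the labels do not say how many animals it holds, what body site was taken, or which dose or time was used. No difference below therefore has a replicate check or a p-value. Values describe these 3 libraries, and every interval is an exact or counting 95% interval that covers counting error only, not differences between animals or between cells.

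Summed over sebocytes, the libraries held 224089, 544225 and 175049 counts in the order control, UV and UV_VD. A sebocyte had a median of 7728.5, 9823 and 8349 counts, against 6822.5, 7566 and 9301 over all cells kept. Mitochondrial genes took a median of 7.33%, 6.62% and 5.98% of a sebocyte's counts, against 2.90%, 2.74% and 2.15% over all cells kept. Between 37 and 66 cell barcodes were shared by any pair of libraries, and 0 of them belonged to a sebocyte. In UV_VD, 1 sebocyte with 39666 counts held 22.7% of the library's sebocyte counts, and it had 13084 counts per 1000000 (CPM) of Krt10, a keratin of the suprabasal epidermis.

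The labelled cell type was checked first, as a description, since all sebaceous genes of these cells follow from how they were picked. Levels are CPM, the gene's counts summed over the cells of a library per 1000000 counts of those cells, and the ratio to the other cells is taken on means over the 3 libraries. Scd1, the stearoyl-CoA desaturase of sebaceous and other lipogenic cells, stood at 10781 CPM in control, 10207 in UV and 8295 in UV_VD sebocytes, against 141, 146 and 117 in all other cells. Mgst1, a microsomal glutathione transferase, stood at 9688, 7723 and 7307 CPM against 13.99, 131 and 15.0. All 93 sebocytes had a count of each of these 2 genes, neither of which is in the rule. Within single cells Scd1 ran from 1456 to 24570 CPM in control, from 147 to 26943 in UV and from 670 to 19461 in UV_VD, with medians of 8334, 9167 and 8643. The 3 libraries' ranges overlapped over nearly their whole width.

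**Figure D1:**
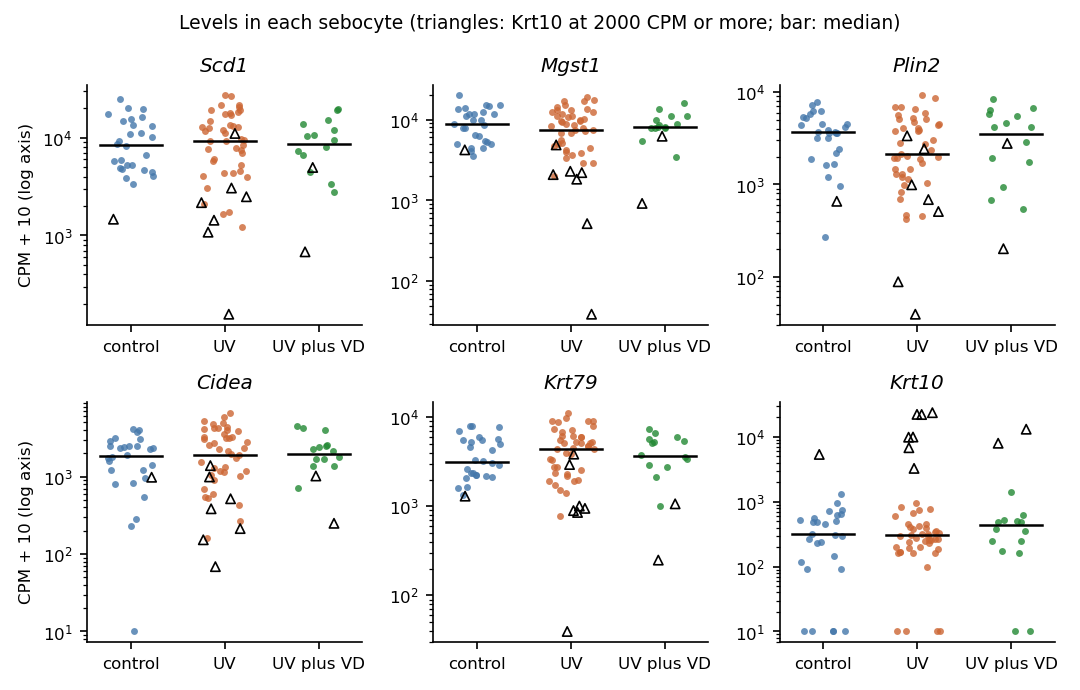
CPM + 10, on a log axis, of Scd1, Mgst1, Plin2, Cidea, Krt79 and Krt10 in each of the 93 sebocytes by library; each point is a cell, the bar is the median and open triangles are cells with at least 2000 CPM of Krt10. Scd1 medians were 8334, 9167 and 8643 CPM in control, UV and UV plus VD, and the triangles lie low in most sebaceous genes.

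The 39 cells with 2 of the 7 genes, just outside the rule, had 781 CPM of Scd1, 1030 of Mgst1 and 19.3 of Fa2h. The 23 cells with 3 of the 7 genes, just inside it, had 5997, 4830 and 427 CPM. The 3 cells with all 7 genes had 17570 CPM of Scd1 and 982 of Fasn, the fatty acid synthase. Inside the rule the number of genes seen also goes with depth: its Spearman correlation with a cell's total count was 0.62, 0.66 and 0.50 over 27, 42 and 14 cells of control, UV and UV_VD, leaving out 10 cells rich in Krt10 that are described below.

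The rule genes were met unevenly. Cidea, a lipid droplet fusion protein, had a count in 27 of 28, 49 of 49 and 16 of 16 sebocytes, and Soat1, which esterifies cholesterol, in 28, 48 and 16. Far2, which reduces fatty acyl-CoA to the alcohols of wax esters, had a count in 22, 43 and 13, and Elovl3, an elongase of saturated fatty acids, in 20, 35 and 14. Awat2, the wax ester synthase, had a count in 14, 28 and 11, and Scd3, the desaturase most restricted to the gland, in 8, 10 and 2. Dgat2l6, an acyltransferase of the same family as Awat2, had 2 and 1 positive sebocytes in UV and UV_VD and is not listed among the control library's genes, so that 6 of the 7 genes could be met there. Membership thus rested mainly on Cidea, Soat1, Far2 and Elovl3.

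A count does not by itself show expression, since free RNA can give a cell counts of a gene it does not express. Among the 263, 784 and 154 cells with a Ptprc count, which should lack the sebaceous program, Cidea was seen in 1.52%, 1.15% and 1.30%, and Far2 in 0.380%, 0.383% and 0.649%. Their median depth was 5420, 4732.5 and 5521.5 counts. Soat1 was seen in 24.3%, 33.9% and 24.0% of them, more often than in the other cells as a whole, at 1.33%, 8.92% and 1.31%. Whether cells with Ptprc express Soat1 or took up its free RNA was not tested. A Soat1 count thus does not by itself mark a sebocyte. Scd1 was seen in 24.3%, 18.6% and 28.6% of the cells with Ptprc, so a single count of it says little. None of these cells had 3 rule genes.

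Some of the listed markers of cell types other than keratinocytes had no count in any sebocyte. Adipocytes also make triglyceride, but Adipoq, Retn, Lep, Plin1 and Car3, 5 of the 10 adipocyte genes listed, were at 0. The list still summed to 241, 239 and 149 CPM, against 10.4, 108 and 8.31 in the other cells, and Lpl, a lipoprotein lipase found in many lipid-handling cells, made up most of it at 237, 208 and 131 CPM. Also at 0 in all sebocytes were Pecam1, Cdh5, Emcn, Kdr, Tie1, Vwf and Flt1 of endothelium, and Cd3e, Cd3d, Cd8a, Cd4 and Il2rb of T and NK cells. Of the fibroblast genes only Pdgfra was at 0 throughout, and of the myeloid genes only Itgam. In UV sebocytes 8 of 8 endothelial, 5 of 10 T and NK, 1 of 10 fibroblast and 1 of 10 myeloid genes were at 0. The T and NK genes summed to 22.3, 51.4 and 74.3 CPM, against 138, 255 and 178 in the other cells. A count of 0 still allows 13.4, 5.51 and 17.1 CPM in the sebocytes of control, UV and UV_VD. The 10 fibroblast genes together came to 35.7, 110 and 28.6 CPM and the 10 myeloid genes to 26.8, 156 and 28.6 CPM, highest in UV, where the other cells carried most of both (4539 and 4680 CPM). The 6 melanocyte genes came to 134, 66.1 and 17.1 CPM, above the 18.0 of the other cells in control and below their 681 and 31.0 in UV and UV_VD. Keratinocyte lists were far from 0. The 9 suprabasal genes summed to 10960, 24479 and 28626 CPM in sebocytes, against 59468, 60051 and 70491 in the other cells. The 8 basal genes summed to 3168, 2870 and 2251 CPM against 2522, 1992 and 1464, and the 8 genes of upper follicle and duct to 5002, 5303 and 5701 CPM against 5036, 6738 and 5981.

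To show the control regions of genes that mark these cells, promoters from RefSeq on build GRCm38.p6 are printed for Plin2 and Elovl6, and for Hmgcs1 of the cholesterol pathway. Plin2 coats lipid droplets and Elovl6 elongates palmitate; they are 2 of the 4 named marker genes with the AGGTCA motif, which nuclear receptors such as PPARG bind when it is repeated. Hmgcs1 makes the precursor of mevalonate, and of the 19 genes of its list with a promoter to search it is the 1 with the SREBP site TCACNCCAC. Each runs from 250 bases before to 50 after the start of transcription, 5′ to 3′ on the gene's strand: Plin2 at chr4:86670010-86670309 on the minus strand, Elovl6 at chr3:129532136-129532435 on the plus strand, and Hmgcs1 at chr13:119690101-119690400 on the plus strand. Capitals mark AGGTCA, here on the opposite strand as TGACCT, in Plin2 and Elovl6, and the SREBP site in Hmgcs1.
Plin2: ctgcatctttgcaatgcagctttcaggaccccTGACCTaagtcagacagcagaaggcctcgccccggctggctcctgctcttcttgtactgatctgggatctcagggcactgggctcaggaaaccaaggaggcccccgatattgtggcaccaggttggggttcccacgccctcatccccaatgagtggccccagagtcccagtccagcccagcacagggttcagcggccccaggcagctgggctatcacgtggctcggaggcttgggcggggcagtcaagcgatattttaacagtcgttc
Elovl6: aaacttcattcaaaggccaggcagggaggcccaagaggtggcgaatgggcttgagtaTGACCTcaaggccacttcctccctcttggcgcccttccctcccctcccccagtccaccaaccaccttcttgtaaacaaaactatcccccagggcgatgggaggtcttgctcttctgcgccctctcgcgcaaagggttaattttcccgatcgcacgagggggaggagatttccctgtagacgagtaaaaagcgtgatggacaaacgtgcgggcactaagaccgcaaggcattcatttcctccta
Hmgcs1: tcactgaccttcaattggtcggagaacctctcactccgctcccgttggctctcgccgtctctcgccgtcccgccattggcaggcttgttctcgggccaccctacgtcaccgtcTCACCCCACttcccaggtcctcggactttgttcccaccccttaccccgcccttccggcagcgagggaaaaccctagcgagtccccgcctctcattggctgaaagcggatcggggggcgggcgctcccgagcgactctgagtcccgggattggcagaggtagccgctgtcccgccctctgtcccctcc

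Letters were searched on both strands in the promoters of 27025 genes, 17 of the 25 marker genes named below among them. AGGTCA was present in 18.1% of all genes and in 4 of the 17 (Chchd10, Elovl6, Ldhb and Plin2). Its direct repeat AGGTCANAGGTCA, which holds 2 copies of AGGTCA, was present in 0.0481% of all genes and in 0 of the 17. The E-box CACGTG was present in 8.09% of all genes, in 2 of the 17 (Mgll and Plin2) and in 5 of 19 cholesterol genes (Dhcr7, Hsd17b7, Insig1, Sc5d and Scap). The SREBP site was present in 1.44% of all genes and in 1 of the 17 (Paqr7). A match describes these letters only and says nothing of binding, and no match says nothing of distant sites.

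Beyond the genes of the rule, sebocytes differed from the other cells in a broad set of lipid genes. A gene was counted as apart when the ratio of its CPM, with 10 CPM added to each side, was at least 2-fold, which is 1 on the log2 scale. Against other cells, 577 of 2128 genes measured (27.1%) were at least 2-fold higher and 247 (11.6%) at least 2-fold lower, with a median log2 ratio of 0.32. Cells were picked by lipid genes, so these counts describe the choice and test nothing.

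Among the 25 named markers, the genes with the largest such ratios, several act on sphingolipids and lipid droplets. Fa2h, which hydroxylates the fatty acids of sphingolipids, stood at 1633, 2166 and 1331 CPM in control, UV and UV_VD sebocytes against 0.328, 8.59 and 0.0725 in the other cells, 571-fold higher on average. Cers4, a ceramide synthase, stood at 1754, 1977 and 1194 CPM, 360-fold higher than in the other cells. Plin2 stood at 3632, 2736 and 3085 CPM against 16.9, 97.9 and 14.5. Fa2h and Plin2 were thus higher in the other cells of UV than in those of the other 2 libraries. However, the other cells of UV include 12 cells that had enough rule genes but were left out for a Col1a2 count. Those 12 cells had 2809 CPM of Fa2h and 2605 of Plin2, and control and UV_VD had 0 such cells. They raise these UV levels of the other cells and so lower the ratios given here. How much of the UV excess they account for was not tested. Mgll, the monoglyceride lipase, stood at 1160, 1091 and 726 CPM, 79.4-fold higher than in the other cells.

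Enzymes that break down or activate fatty acids were also among the markers. Acoxl, a relative of the peroxisomal acyl-CoA oxidases, stood at 455, 281 and 166 CPM, 570-fold higher than in the other cells. Decr1, which helps oxidise unsaturated fatty acids in mitochondria, stood at 527, 437 and 274 CPM, and Eci2, an enoyl-CoA isomerase, at 665, 349 and 303 CPM. Acss2, which makes acetyl-CoA from acetate, stood at 567, 397 and 309 CPM. All 4 had their lowest value in UV_VD when all sebocytes were counted. Without the largest UV_VD sebocyte Eci2 was at 355 CPM there, close to the 349 of UV.

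Of the steroid enzymes, Hsd3b6, a 3-beta-hydroxysteroid dehydrogenase, was among the 25 markers, with 228, 338 and 97.1 CPM in sebocytes and at most 1.84 CPM in the other cells of any library. Other named markers were Ces1d, a carboxylesterase, Aadac, a lipid esterase, Paqr7, a membrane progestin receptor, Psph of serine synthesis, Pank1 of coenzyme A synthesis and Ldhb, a lactate dehydrogenase. Others were Lhpp, Fam213a, Tmem45b, Dhrs7, Acbd6 and Chchd10, with Elovl6, Scd1 and Mgst1.

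**Figure D2:**
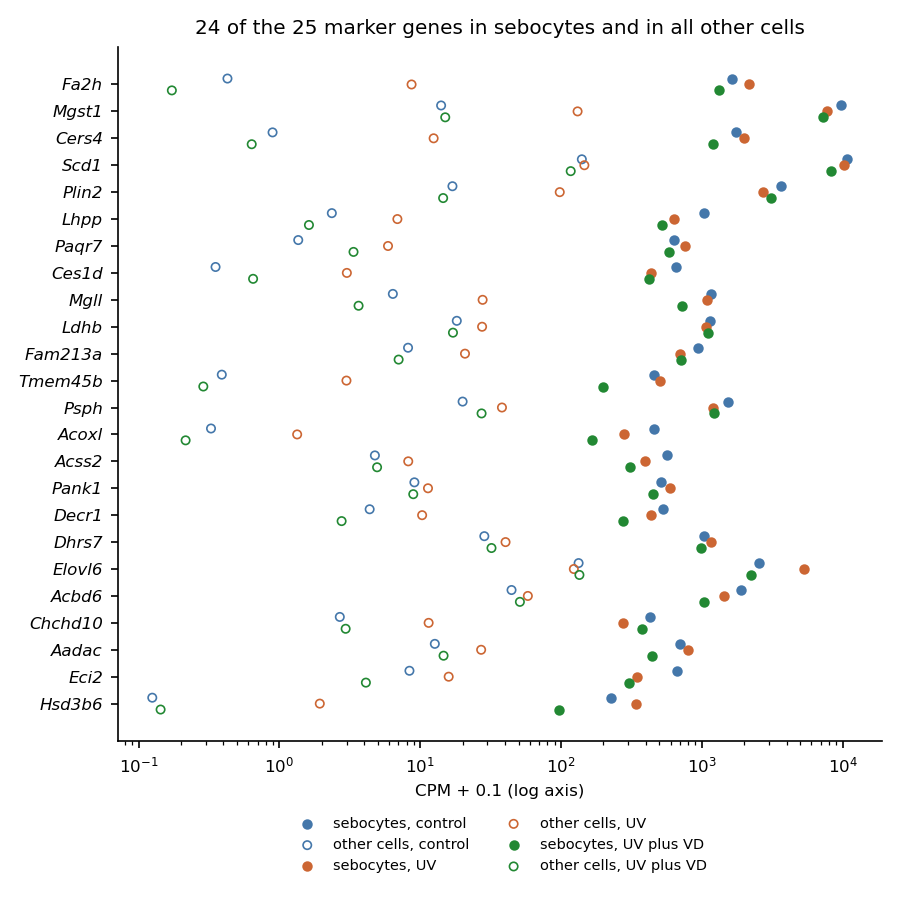
CPM + 0.1, on a log axis, of 24 of the 25 marker genes by library; filled points are sebocytes and open points all other cells. The filled points lie to the right of the open ones for each gene, by 25.7-fold on average for Elovl6 and 571-fold for Fa2h.

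The lists of lipid genes stood high nearly throughout. In fatty acid and wax ester synthesis 17 of 18 measured genes were higher and 1, Elovl1, was lower, with a median log2 ratio of 3.29. In peroxisomes and fatty acid oxidation 17 of 20 were higher, with a median of 2.38, in lipid droplets and lipid binding 10 of 13, with 2.20, and in cholesterol synthesis and uptake 16 of 25, with 1.67. All 40 nuclear genes of oxidative phosphorylation were measured; 34 were higher, with a median of 1.52, beside the higher mitochondrial share given above. Of steroid and retinoid metabolism 6 of 8 were higher, of antioxidant genes 9 of 15, and of triglyceride and phospholipid synthesis 2 of 4.

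Genes of the cornifying and stressed epidermis stood low. All 9 measured epidermal stress genes were lower, with a median log2 ratio of -2.10, and so were 8 of 9 suprabasal genes, with -2.01. Of 5 antimicrobial genes measured 4 were lower and of 4 cytokine genes 3. Of 12 genes of holocrine breakdown and lysosomes 2 were higher and 4 lower. Of 28 immediate early and heat shock genes 2 were higher, the mitochondrial chaperones Hspd1 and Hspe1, and 8 were lower, and of 7 p53 targets 2 were higher and 3 lower. Interferon response had 0 higher and 1 lower of 5, cell cycle 1 and 0 of 6, and vitamin D genes 0 and 0 of 2.

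A narrower comparison was with cells that carry genes of the sebaceous duct and upper follicle. They were 2306 non-sebocytes with Krt79, at least 2 of Krt17, Cst6, Plet1, Gata6, Lrig1 and Atp6v1c2, at most 1 of the rule genes, and no Ptprc or Col1a2. Against them 598 of 2128 genes (28.1%) were at least 2-fold higher and 247 (11.6%) at least 2-fold lower. The median was 3.34 for fatty acid and wax ester synthesis and 1.61 for oxidative phosphorylation. Sebocytes themselves held Krt79 at 4222, 4551 and 3405 CPM, with a count in all 93.

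The regulators of the gland were present at low counts. Pparg stood at 125, 82.7 and 91.4 CPM in 17, 25 and 10 sebocytes, against at most 3.81 CPM in the other cells of any library. Srebf1, the switch of lipid synthesis, stood at 129, 79.0 and 143 CPM. Mc5r, the melanocortin receptor of sebocytes, had 0, 11 and 0 counts, and Prdm1 1, 10 and 3. Most of these counts are low; UV_VD was 1.81-fold above UV for Srebf1 [1.06, 3.03], on 25 and 43 counts.

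The vitamin D and cytokine genes set for naming had few or no counts in these cells. Their wider lists were not absent. Summed over the vitamin D list, cell medians were 127, 153 and 232 CPM in control, UV and UV_VD. For the cytokine and chemokine list they were 152, 313 and 287 CPM. Vdr, the vitamin D receptor, had 5, 8 and 6 counts, while Cyp24a1, its classical target that degrades vitamin D, had 0 in each library. Tslp, a cytokine that can act on the gland, had 3, 7 and 0 counts, its receptor chain Crlf2 0, 1 and 0, and the antimicrobial resistin-like gene Retnla 6, 3 and 1. Of these, the interval of UV against control excluded 1 for Retnla, 4.86-fold lower in UV [1.04, 30.02], on 6 and 3 counts. Only 3 control sebocytes had a Retnla count, and 1 of them held 66.7% of the 6. The other cells stood higher, at 144, 286 and 108 CPM, and the part of free RNA was not tested.

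The share of sebocytes was largest in the UV library. It was 0.308% of cells [0.205, 0.445] in control, 0.899% [0.666, 1.19] in UV and 0.258% [0.148, 0.419] in UV_VD, with exact Clopper-Pearson intervals. UV was 2.91-fold above control [1.83, 4.63], and UV_VD was 3.48-fold below UV [1.98, 6.12]. UV_VD stood at 0.837 times control [0.453, 1.55], an interval that spans 1.

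**Figure D3:**
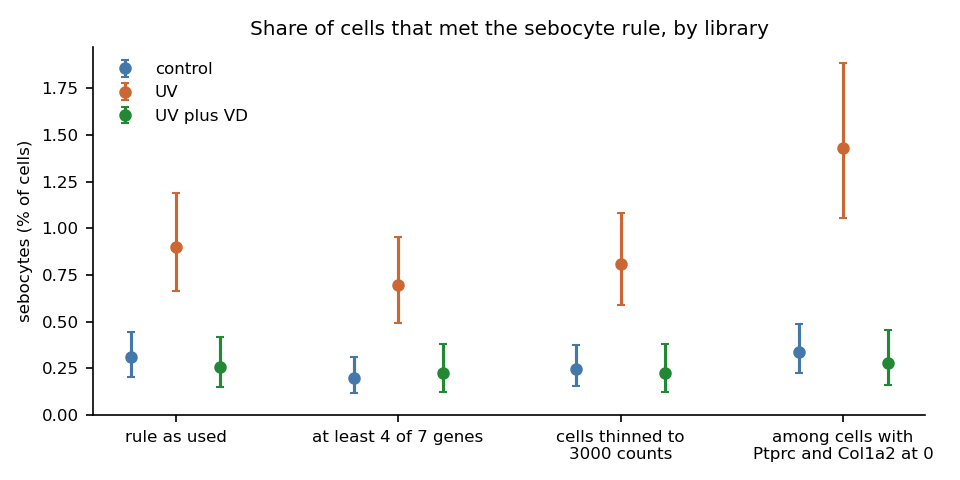
Cells that met the sebocyte rule as a percentage of cells in each library, with exact 95% binomial intervals, under the rule as used, with at least 4 of 7 genes, with cells thinned to 3000 counts, and among cells with Ptprc and Col1a2 at 0. UV lies above control and UV plus VD in each setting, at 0.899% against 0.308% and 0.258% under the rule as used.

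The order of UV above the other libraries held under the other ways of counting. With cells thinned to 3000 counts each, which left out 175 shallower control cells, shares were 0.247%, 0.807% and 0.226%. With at least 4 of the 7 genes, 18, 38 and 14 cells qualified. Leukocytes and fibroblasts were a larger part of the UV library: 14.5% of its other cells had a Ptprc count and 25.4% a Col1a2 count, against 2.91% and 6.20% in control and 2.49% and 5.34% in UV_VD. Among cells with neither gene, sebocytes were 0.339%, 1.43% and 0.279%, and the ratio of UV to control was 4.21 [2.65, 6.69]. The share depends on which cells a dissociation frees and on its other cells, so more sebocytes and fewer cells of other kinds cannot be told apart.

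Some sebocytes also carried RNA of the suprabasal epidermis. Krt10 reached at least 2000 CPM, a limit set after its values were seen, in 1 of 28, 7 of 49 and 2 of 16 sebocytes. The highest values below that limit were 1290, 948 and 1419 CPM. The 10 cells had a median Scd1 of 1456, 2155 and 2806 CPM by library, against 8491, 9571 and 9825 in the others. The largest UV sebocyte, with 34049 counts, was 1 of them and had 23525 CPM of Krt10 and 147 of Scd1. No doublet caller was run on these libraries, and whether such cells are pairs of cells was not tested. Counts of genes apart and the lists they bear on most are given below with and without them.

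Across sebocytes Scd1 went with other lipid genes. Without the cells rich in Krt10, the Spearman correlation of Scd1 with Mgst1 across cells was 0.74, 0.66 and 0.37 in control, UV and UV_VD, and with Fa2h 0.72, 0.79 and 0.56. For Scd1 with total counts it was 0.65, 0.43 and 0.49, and with the mitochondrial share -0.49, -0.22 and -0.37. These describe 27, 42 and 14 cells of 1 library each, which share depth and the rule's choice.

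A few sebocytes held most of the counts of some lipid genes. The 5 cells highest in each gene held 93.8% of all Scd3 counts, 86.2% of those of Awat1, a wax synthase, and 81.1% of those of Elovl4, which makes very long chain fatty acids. The same number held 20.3% of Scd1 and 17.0% of Mgst1 counts. In UV_VD 1 cell, with 16525 counts, all 7 rule genes and 363 CPM of Krt10, held 99.8% of the library's Scd3 counts and 92.0% of its Elovl4 counts. In that cell Scd3 reached 33646 CPM and Elovl4 41210, against 6.31 and 372 CPM in the rest of UV_VD. It also held 90.9% of the counts of Rarres1, 88.5% of Insig2 and 99.2% of Serpina3b, 3 genes named after their values were seen. Library levels of these genes describe single cells.

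The libraries were then compared gene by gene within sebocytes, over genes with at least 50 counts in the 2 libraries. Between UV and control, 134 of 1792 genes (7.48%) stood at least 2-fold higher in UV and 15 (0.837%) at least 2-fold lower, with a median log2 ratio of 0.10 over all genes. Once the sebocytes rich in Krt10 were left out, 38 of 1427 were higher and 19 lower, and 37 of these 57 were among the genes apart with all sebocytes. Suprabasal genes moved with this: 5 of 8 were 2-fold or more above control, with a median of 1.42, and 0 were without those cells, where the median was 0.25. Epidermal stress genes went from 5 of 7 higher, with a median of 1.65, to a median of -0.63. The other genes of the first count either fell short of 2-fold or had too few counts to be measured.

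**Figure D4:**
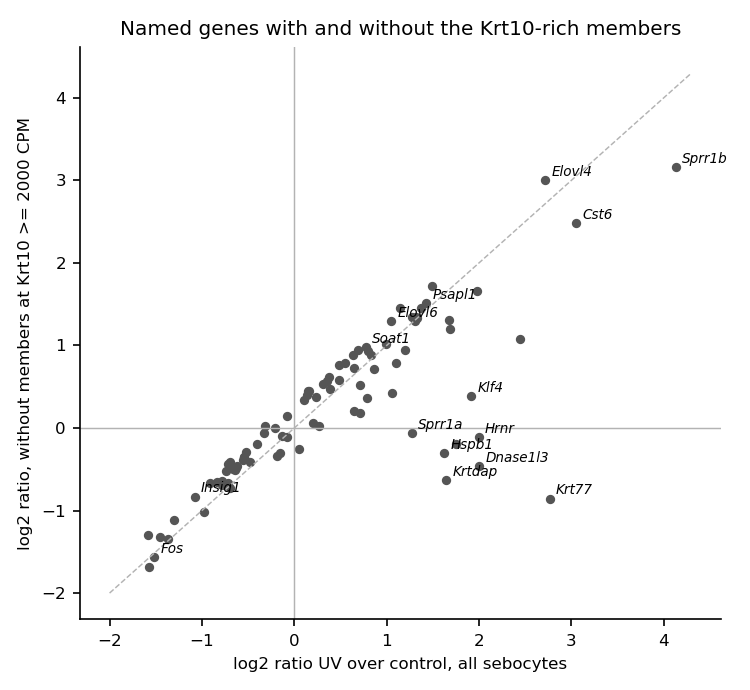
Log2 ratio of UV over control for the named genes with at least 50 counts, with all sebocytes on the horizontal axis and without the 10 sebocytes at 2000 CPM of Krt10 or more on the vertical axis; each point is a gene and the dashed line marks equal values. Elovl6 (1.05 and 1.30) stays near the line, while Krtdap and Krt77 fall from above 0 to -0.63 and -0.86.

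Elovl6 was the lipid gene that stood highest in UV among the genes named by the rule. It stood at 2553 CPM in control, 5294 in UV and 2228 in UV_VD, while the other cells had 133, 123 and 135. In single cells the lowest, median and highest values were 0, 2079 and 7880 in control, 0, 3257 and 14313 in UV, and 287, 1596 and 5890 in UV_VD. UV was 2.07-fold above control [1.90, 2.27], at a log2 ratio of 1.05 that was 1.30 without the cells rich in Krt10. UV_VD was 2.38-fold below UV [2.14, 2.65]. The libraries overlapped cell by cell, and the other cells showed no such order.

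Of 18 genes of fatty acid and wax ester synthesis measured, 3 were 2-fold or more above control in UV and 0 lower, with a median of 0.15. The other two, Elovl4 at 353 and 2376 CPM and Awat1 at 44.6 and 143, had larger ratios than Elovl6, but 1 cell held 77.2% and 100% of their control counts. Fasn stood at 321, 402 and 326 CPM. The rule genes Soat1, Elovl3 and Far2 were highest in UV, as a description only: Soat1 at 1339, 2302 and 1137 CPM, Elovl3 at 768, 1200 and 480, and Far2 at 647, 1053 and 863. For Far2 1 cell held 60.9% of the UV_VD counts, and the rest of UV_VD was at 372 CPM, below control. Cidea was level at 2084, 2289 and 1971 CPM.

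The other genes named as higher in UV than in control have roles outside lipid synthesis. Adgrf4, an adhesion receptor, had 5 counts in control sebocytes and 64 in those of UV, which is 22.3 and 118 CPM, and Ephx3, an epoxide hydrolase of the epidermis, had a log2 ratio of 1.68. Psapl1, a prosaposin-like gene, stood at 357 CPM in control, 976 in UV and 651 in UV_VD, in 12 of 28, 34 of 49 and 8 of 16 sebocytes, 2.73-fold above control in UV [2.16, 3.502]. Without the cells rich in Krt10 its log2 ratio was 1.51. Polr2l, an RNA polymerase subunit, stood at 84.8, 226 and 68.6 CPM, and Tmem33 of the endoplasmic reticulum at 66.9, 176 and 62.8. Cnih4, Bzw1, Gng5 and Csnk2b completed the 10.

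The immune and stress genes of sebocytes differed in a few places. H2-D1, an MHC class I chain, stood at 696, 1244 and 1497 CPM, with cell medians of 519, 1124 and 1201, 1.79-fold above control in UV [1.499, 2.14]. The other cells had 1443, 1732 and 1604 CPM. H2-K1 stood at 754, 1183 and 1034 CPM, and none of 5 interferon response genes measured was 2-fold apart between UV and control. Sprr1b, a cornified envelope precursor, had 2, 175 and 42 counts in 2, 37 and 3 sebocytes. It was 382, 2576 and 594 CPM in the other cells, above its 8.93, 322 and 240 CPM in sebocytes, and how far free RNA contributed was not tested.

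Only 6 genes met the rule for lower values in UV. Adh1, an alcohol and retinol dehydrogenase, stood at 870 CPM in control, 312 in UV and 343 in UV_VD, with cell medians of 657, 305 and 349. This was 2.79-fold lower in UV [2.26, 3.44] and 2.54-fold lower in UV_VD [1.89, 3.45] than in control. Eci2 was 1.90-fold lower in UV [1.53, 2.37]. Vav3, a guanine nucleotide exchange factor, was 2.60-fold lower in UV [1.78, 3.80].

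The immediate early transcription factors Atf3 and Fos were lower in UV as well, but their list as a whole was nearly level. Of its 28 measured genes, 2 fell and 3 rose by 2-fold or more from control to UV, with a median log2 ratio of -0.10. Without the cells rich in Krt10, 3 of 23 fell and 0 rose by as much, with a median of -0.09. Atf3 stood at 263, 80.8 and 171 CPM, 3.26-fold lower in UV than in control [2.17, 4.93]. Fos stood at 335, 110 and 223 CPM, 3.04-fold lower [2.13, 4.34]. In the other cells Fos was 213, 365 and 113 CPM, with UV above control, and Atf3 was 322, 214 and 159.

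Metallothionein Mt1, which binds metals, stood at 3503, 1352 and 2411 CPM, but 1 control cell held 55.7% of that library's counts. Its cell medians were 673, 672 and 1896 CPM, so the typical sebocyte of control and of UV had nearly the same level.

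Between UV_VD and UV, 38 of 1732 genes (2.19%) were at least 2-fold higher in UV_VD and 51 (2.94%) at least 2-fold lower, with a median log2 ratio of 0.01. Scaled by the median of gene ratios instead of total counts, 30 were higher and 69 lower. Without the UV_VD cell that held most Scd3 counts, 44 were higher and 94 lower. Without the cells rich in Krt10, 34 of 1262 were higher and 48 lower, and 40 of these 82 were among the genes apart with all sebocytes. No gene met the rule for naming on the higher side. That rule bars a gene when 1 cell holds over 20% of its counts in the higher library. In UV_VD 1 sebocyte held 22.7% of all sebocyte counts, so even an evenly spread gene would tend to fail. The lack of higher named genes therefore says little. On the lower side were genes of fatty acid handling and steroids, several of them rarely seen in UV_VD.

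Slc27a4, which takes up and activates fatty acids, stood at 308 CPM in control, 472 in UV and 143 in UV_VD, 3.31-fold lower in UV_VD than in UV [2.19, 5.21]. Elovl3 was 2.50-fold lower in UV_VD [1.99, 3.18], as a description of a rule gene. Cd36, a fatty acid receptor, stood at 379, 327 and 137 CPM. Tmem45b, a membrane protein, stood at 455, 502 and 200 CPM. For these 4 genes UV_VD was the lowest library.

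Hsd3b6 was 3.48-fold lower in UV_VD than in UV [2.12, 6.11], with 10 of 28, 19 of 49 and 5 of 16 sebocytes positive. In UV_VD 58.8% of its counts came from 1 cell. Cyp17a1, which makes androgen precursors, stood at 53.6, 130 and 34.3 CPM, on 12, 71 and 6 counts. Srd5a1, which makes the active androgen dihydrotestosterone, stood at 281, 153 and 177 CPM. The 3 steroid enzymes did not share 1 order across the libraries.

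Genes of low count completed the list. Gchfr, which regulates tetrahydrobiopterin synthesis, had 10, 53 and 2 counts and Id1, an inhibitor of differentiation factors, 21, 62 and 3. The fold of UV over UV_VD was 8.52 [2.25, 72.2] for Gchfr and 6.65 [2.17, 33.1] for Id1, and the widths show how little 2 and 3 counts fix it. Cd44, a hyaluronan receptor, with Polr2l, Tmem33 and the cholesterol gene Lss made up the rest.

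The cholesterol pathway had the lowest median of the lipid lists measured, and this was between UV_VD and control. Of 1007 genes measured between these libraries, 95 (9.43%) were at least 2-fold higher in UV_VD and 19 (1.89%) at least 2-fold lower, with a median log2 ratio of 0.05. Of 19 cholesterol genes measured, 18 were below 0 and 3 at least 2-fold lower, with a median of -0.82. Lpcat3, a phospholipid enzyme counted in the list, was the exception, at 223, 292 and 377 CPM. Without the cells rich in Krt10, 14 of 16 were below 0 and 4 at least 2-fold lower, with a median of -0.65. Without the UV_VD sebocyte of 39666 counts, left out after its values were seen, 15 of 17 were below 0 and the median was -0.76.

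With all sebocytes, UV lay between the other libraries by the median ratio of the list. Between UV and control 18 of 24 genes were below 0, with a median of -0.23, and between UV_VD and UV 21 of 25, with -0.35. Without the cells rich in Krt10 it was 14 of 22, with -0.11, and 20 of 22, with -0.32. These comparisons share libraries, so their values are not independent of each other. The median of all genes was 0.10, 0.01 and 0.05 for UV against control, UV_VD against UV and UV_VD against control. In single cells the summed level of the list had medians of 7809, 7597 and 6400 CPM in control, UV and UV_VD. Without the cells rich in Krt10 these cell medians were 8104, 8590 and 6683 CPM, with UV the highest.

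Lss, which closes squalene epoxide into lanosterol, stood at 469 CPM in control, 277 in UV and 103 in UV_VD, in 17 of 28, 30 of 49 and 8 of 16 sebocytes. UV_VD was 4.56-fold below control [2.75, 7.99] and 2.70-fold below UV [1.65, 4.68]. In the other cells Lss was 24.99, 24.8 and 26.1 CPM, level across libraries. Cell by cell the libraries overlapped, since each had sebocytes with no Lss count, and the highest cells were at 1525, 1341 and 453 CPM.

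Acat2, which joins acetyl-CoA at the start of the pathway, stood at 879, 645 and 326 CPM, with cell medians of 528, 472 and 230 and highest cells of 2366, 1990 and 793. UV_VD was 2.70-fold below control [2.001, 3.69]. In the other cells Acat2 was 35.9, 39.5 and 33.2 CPM. Without the UV_VD sebocyte of 39666 counts Lss was at 111 and Acat2 at 340 CPM in UV_VD, so the order of the libraries did not rest on that cell.

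Other enzymes of the pathway had the same order or nearly so. Cyp51, the lanosterol demethylase, stood at 1267, 733 and 646 CPM and Nsdhl, of the same demethylation, at 460, 296 and 251. Msmo1 stood at 2321, 2460 and 1308 CPM, Sqle, the squalene epoxidase, at 411, 349 and 200, and Hmgcs1, whose promoter is printed above, at 937, 702 and 548. Insig1, which holds back SREBP activation, stood at 295, 134 and 149 CPM. Erg28, a scaffold of the sterol demethylase complex, was named by its own values and stood at 486, 316 and 166 CPM, 2.94-fold lower in UV_VD than in control [1.93, 4.59].

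**Figure D5:**
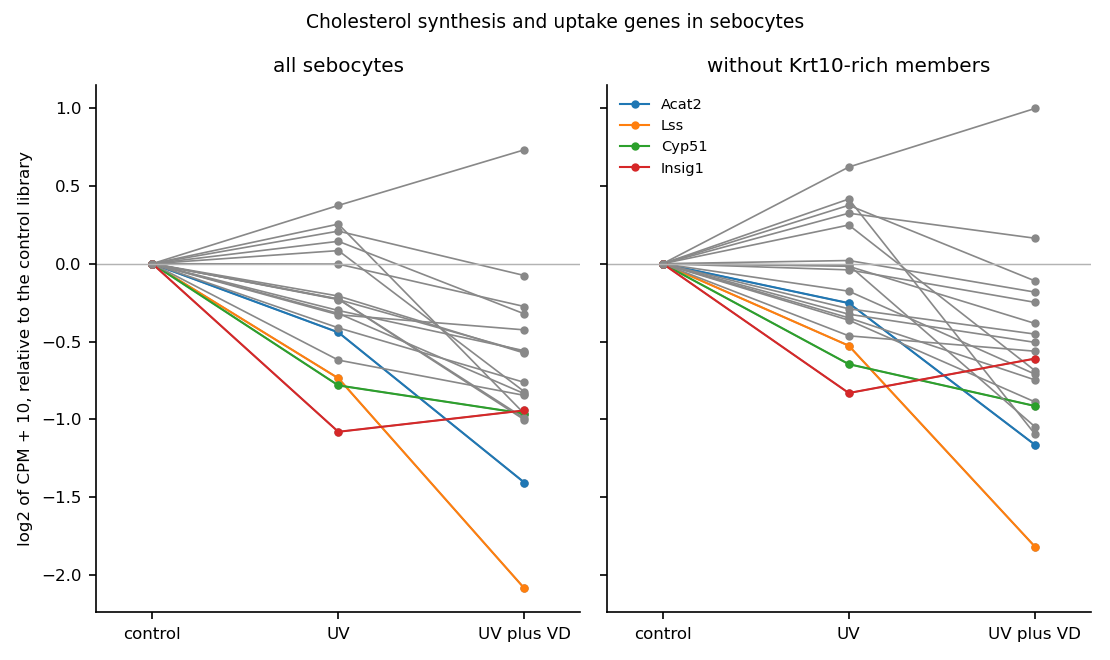
Log2 of CPM + 10 relative to the control library for the 19 cholesterol genes with at least 50 counts in control and UV_VD together, in all sebocytes on the left and without the cells rich in Krt10 on the right; each line is a gene. With all sebocytes 18 of 19 lines lie below 0 in UV plus VD, and Lss is at -2.08.

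The remaining genes named as lower in UV_VD than in control were mostly markers of the sebocytes themselves. Acoxl was 2.75-fold lower [1.80, 4.31], Cd36 2.77-fold lower [1.74, 4.55], Tmem45b 2.28-fold lower [1.54, 3.44], Eci2 2.20-fold lower [1.60, 3.06] and Lhpp 1.99-fold lower [1.56, 2.57]. In that order UV_VD stood at 166, 137, 200, 303 and 520 CPM. Without its largest sebocyte, which was rich in Krt10, it stood at 163, 163, 229, 355 and 591 CPM. Control stood at 455, 379, 455, 665 and 1035 CPM, so UV_VD stayed lower by smaller ratios for all but Acoxl. Levels of these genes without any of the cells rich in Krt10 are not given here. Psmd4, a proteasome subunit, was 2.59-fold lower [1.64, 4.23]. No gene met the rule for naming on the higher side, which again says little, since 1 UV_VD sebocyte held 22.7% of the sebocyte counts. H2-D1 was 2.15-fold above control [1.76, 2.64], with a count in all 16 UV_VD sebocytes. It was not named because 1 cell held 33.2% of its UV_VD counts. The 95 genes at least 2-fold higher in UV_VD included 6 of 7 suprabasal and 4 of 6 epidermal stress genes, and 33 of 809 genes were higher without the cells rich in Krt10. Without them 0 of 4 suprabasal genes were at least 2-fold higher, with a median of 0.12 in place of 1.84, while of 5 epidermal stress genes 2 were higher and 1 was lower; their median was 0.63 in place of 2.21.

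No measured gene of the peroxisome and oxidative phosphorylation lists was 2-fold apart between libraries. The median of the peroxisome list was -0.18 for UV against control, -0.19 for UV_VD against UV and -0.35 for UV_VD against control, with 0 genes 2-fold apart in each. Between UV_VD and control 11 of its 14 measured genes were below 0, with Abcd3 at -0.94 and Acadl and Decr1 at -0.92. Acoxl and Eci2, named above as lower in UV_VD, are not in this list. For oxidative phosphorylation it was -0.18, -0.02 and -0.20, also with 0 genes apart. Of the antioxidant list 0 genes were at least 2-fold higher and 2 at least 2-fold lower in UV (Mt1 and Mt2) and in UV_VD (Fth1 and Mt2) than in control, and 1 control cell held 64.5% of that library's Mt2 counts.

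Few sebocytes carried genes of dividing cells. At least 2 of Mki67, Top2a, Ccnb1, Cdk1 and Birc5 had a count in 1 of 28, 3 of 49 and 0 of 16 sebocytes. Among the other cells it was 0.906%, 7.46% and 1.88%. The numbers are too small to compare libraries.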

How the data were processed

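Skin cells of 3 libraries, 1 per group, were profiled with the Singleron GEXSCOPE kits, per the labels' protocols. The authors deposited 1 table of raw counts per gene and cell for each library, used here as deposited; every column was used (0 left out). FastQC, fastp, STAR, featureCounts and the build GRCh38 are named in the submitters' processing notes. GRCh38 is a human build while the gene symbols are of mouse, so no coordinates were taken from the tables. The sources used here do not say whether a count is a molecular identifier or a read; if reads, intervals are too narrow.

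Cells with at least 200 genes and at most 20% mitochondrial counts were kept. The members and the gene lists were chosen with earlier results of these data known. Counts were summed over sebocytes of a library and scaled to CPM; ratios are log2 of CPM + 10, over genes with at least 50 counts in both libraries together. Folds have exact conditional 95% intervals. No doublet caller was run. Named between libraries were up to 10 genes on each side, with at least 50 counts and 20% of sebocytes positive in the higher library, at most 20% of counts there from 1 cell, a level of at least 0.5 times that of the other cells and an interval beyond 1.5-fold. Named markers were the 25 highest ratios among genes in at least 30% of sebocytes of each library. The 7 rule genes, set regulators and up to 4 genes per list were named whatever their values; other genes were chosen after their values were seen. Genes of the mitochondrial genome, ribosomal proteins and haemoglobins, and Gm and Rik models, were never named, and a few genes that met these rules are not reported here.

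Alternatives were another pseudocount (1 or 50 CPM), count minimum (20 or 200), scaling, cell weighting, number of rule genes, mitochondrial limit and thinning to 3000 counts. Depth per library was 79450666, 50610389 and 69126823 counts in control, UV and UV_VD. The ratio step was tested on simulated counts that had counting error only, without spread between cells. That test cannot show how ratios or intervals behave where a single cell holds most of a gene's counts. Python 3.11.15, numpy 2.4.6, scipy 1.17.1, pandas 2.3.3 and matplotlib 3.10.9 were used.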

Additional observations from a re-analysis of the deposited data

Results flagged for a closer look

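In the UV library 12 further cells had at least 3 of the 7 sebaceous genes but were left out for a Col1a2 count; none of them had a Ptprc count, and control and UV_VD had 0 such cells. Of the 12 cells 7 had a single Col1a2 count, while 1 had 607 of their 660. Their levels were 11274 CPM for Scd1, 10445 for Mgst1, 2605 for Plin2 and 2809 for Fa2h. They stand here because they lie outside the sebocytes compared and carry the sebaceous genes at levels like those of the sebocytes counted. In all comparisons with other cells they were counted among the other cells of UV. With them the UV share was 1.12%, 3.63-fold above control [2.32, 5.67]. Col1a2 was seen in 25.4% of the other cells of UV, against 6.199% in control, and the part of free RNA in these counts was not tested.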

How the results depend on the processing

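Shares of sebocytes were recomputed with 2 or 4 rule genes, thinned cells, no condition on Ptprc and Col1a2, a mitochondrial limit of 10%, without the 5% largest cells and, chosen after seeing the data, among cells free of both genes and without the cells rich in Krt10. The order of UV above control and UV_VD held in each; UV_VD against control was 1.14 at 4 rule genes, on the other side of 1. Counts of genes apart, 149, 89 and 114 for UV against control, UV_VD against UV and UV_VD against control, depended on the limits. They were 443, 330 and 333 at 20 counts, and 36, 18 and 31 at 200. With a pseudocount of 50 CPM they were 82 and 46 for the comparisons with UV, and with each cell weighted the same 72 for UV_VD against control. Settings chosen after seeing the data gave 57 (UV against control) and 48 (UV_VD against control) without the cells rich in Krt10, 148 (UV_VD against UV) with the cells that have Ptprc or Col1a2, and 138 (UV_VD against UV) without the cell highest in Scd3. The share of higher genes went from 42.7% to 30.3% between UV_VD and UV when scaled by median ratios, and to 31.9% without the cell highest in Scd3.

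Without the cells rich in Krt10, log2 ratios of UV against control changed sign for the epidermal stress list (-0.63), Dbi (-0.20), Dnase1l3 (-0.46), Sprr1a (-0.059), Hspb1 (-0.30), Krt77 (-0.86), Hrnr (-0.11) and Krtdap (-0.63), and those of UV_VD against control for Elovl1 (-0.31) and Krt77 (-0.60). The share of higher genes went from 89.9% to 66.7% and from 83.3% to 68.8%. Without the cell highest in Scd3, Scd3 was at -4.01 (UV_VD against UV) and -4.73 (UV_VD against control), Awat1 at -1.27 and Elovl5 at -1.30 (UV_VD against control), since that cell held most of their counts; Scd3 then rested on 1 UV_VD count. Equal weights for cells gave 0.00743 for Mt2, UV_VD against control; the cause was not tested. No paired analysis was possible because each group has 1 library. Depth limits genes with few counts in the 16 sebocytes of UV_VD.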
